A study of Mus musculus with 24 samples.

Results

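Loss of the circular RNA Cdr1as was compared between 2 brain regions of C57BL/6 mice, the olfactory bulb and the hippocampus, as the effect of knockout on each gene in the olfactory bulb minus its effect in the hippocampus. The 12 libraries used, of 24 in the series, were chosen by their labels and not by any measured value: 3 of Cdr1as knockout olfactory bulb, 3 of wild-type olfactory bulb, 3 of Cdr1as knockout hippocampus and 3 of wild-type hippocampus. All were total RNA of dissected tissue, depleted of ribosomal RNA and sequenced. The labels give no age, and nothing in them ties a replicate to an animal of its own. The p-values therefore refer to the variation among these libraries, part or all of which may be technical. In such bulk tissue, fewer cells of a type and less RNA per cell cannot be told apart. The question was which genes differed with the loss of Cdr1as in one region, and less or not in the other.

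Cdr1as is a circular RNA of neurons that holds many sites for the microRNA miR-7 and a nearly perfect site for miR-671, by which it is cut. Immediate early genes are transcribed within minutes of neuronal stimulation through factors such as CREB and SRF that are already present in the cell, and many encode transcription factors that act on later genes. The olfactory bulb relays odour input through mitral and tufted cells under the control of inhibitory granule cells, and the hippocampus, which serves memory, is built of pyramidal and granule cells that are excitatory.

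The microRNAs of the Cdr1as network are shown for their seeds, bases 2 to 8, in capitals. The sites described further on are the complement of the miR-7 seed, and sites for miR-671 were not searched for. The sequences are those of RefSeq (GRCm38.p6), in which miR-7a and miR-7b share a seed and miR-671-5p has another.
miR-7a-5p: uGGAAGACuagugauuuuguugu
miR-7b-5p: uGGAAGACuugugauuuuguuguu
miR-671-5p: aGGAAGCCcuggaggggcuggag

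The tissue labels were borne out by region markers: Eomes, a factor of mitral and tufted cells, lay at 78.7 to 130 CPM (gene counts scaled to a common library size) in olfactory bulb libraries and 0.663 to 1.28 CPM in hippocampus libraries, and Prox1, a factor of dentate granule cells, at 4.5 to 11.3 and 167 to 242 CPM in the same order. The libraries held 5.18 to 26.43 M gene counts. Olfactory bulb knockout 2 (5.18 M) and olfactory bulb wild type 1 (7.4 M) were the only ones under 8 M. Hippocampus wild type 1 stood apart from the other hippocampus wild types, with 37% of reads in no feature against 48.3% to 62.9% in the other 11 libraries. Cdr1as itself lay at 0.214, 0.179 and 0.551 CPM in knockout and 992, 854 and 840 CPM in wild-type olfactory bulb, and at 0.673, 0.6 and 0.451 CPM in knockout and 447, 372 and 745 CPM in wild-type hippocampus. No library went against its genotype.

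No gene passed an adjusted p of 0.05 for the difference between the 2 knockout effects among 17010 genes tested (edgeR quasi-likelihood test, Benjamini-Hochberg adjustment), a called share of 0%. An unadjusted p under 0.05 was reached by 353 genes (2.08%), 264 of them with the higher effect in the olfactory bulb (1.55%) and 89 with the lower one (0.523%). Within a region it was reached by 870 genes in the olfactory bulb (5.11%), where 302 were lower in knockout (1.78%), and by 329 in the hippocampus (1.93%). DESeq2 called 7 genes and limma-voom 3. The 8 smallest p-values included 6 immediate early genes. These 6 genes, Egr3, Fosl2, Nr4a3, Nr4a2, Atf3 and Fosb, are also those that passed in the olfactory bulb, together with Irs2 and, in the other direction, Cdr1as: 8 genes called there (0.047% of those tested), against 2 in the hippocampus (0.0118%). The difference contains the olfactory bulb effect from the same libraries, so this match is no independent finding.

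Egr3, a zinc finger transcription factor of the early growth response family, lay at 75.7, 87 and 110 CPM in knockout and 27.9, 28.4 and 33.8 CPM in wild-type olfactory bulb. In the hippocampus it lay at 63.6, 58.4 and 69.6 CPM in knockout and 51.7, 59.2 and 57 CPM in wild type. Every knockout olfactory bulb was above all other libraries, while the hippocampal genotypes overlapped. Egr3 rose in the olfactory bulb (log2 fold change 1.60, SE 0.15, adjusted p = 0.000186, edgeR) and had 0.19 (SE 0.14) in the hippocampus. The difference of effects was 1.40 on the log2 scale (SE 0.20, 95% interval 0.97 to 1.84), and its adjusted p of 0.0517 lay just past the threshold. In the fit of all 24 libraries of the series the olfactory bulb call was lost (adjusted p = 0.413, edgeR) and the difference had an adjusted p of 1, with the same fold changes.

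Fosl2, which encodes the AP-1 subunit Fra-2, lay at 288, 430 and 397 CPM in knockout and 115, 95.6 and 136 CPM in wild-type olfactory bulb. It lay at 89.7, 120 and 121 CPM in knockout and 103, 97.3 and 105 CPM in wild-type hippocampus. The knockout olfactory bulbs were thus above the other 9 libraries, which shared a range of 89.7 to 136 CPM. Fosl2 rose in the olfactory bulb (log2 fold change 1.68, SE 0.16, adjusted p = 0.000271) and had 0.11 (SE 0.16) in the hippocampus. The difference was 1.57 (SE 0.23, interval 1.08 to 2.06) with the same adjusted p of 0.0517. Egr3 and Fosl2 were each called for the difference under 7 of 25 other settings, among them DESeq2, limma-voom and no filter on low counts. Without the libraries under 8 M counts the differences were 1.39 and 1.45, at adjusted p = 0.295 and 0.534 (edgeR).

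Of the orphan nuclear receptors, which act as transcription factors without a known hormone, Nr4a3 lay at 107, 141 and 168 CPM in knockout and 15.4, 20.7 and 39.3 CPM in wild-type olfactory bulb. In the hippocampus it lay at 176, 169 and 181 CPM in knockout and 129, 121 and 114 CPM in wild type. The genotypes did not overlap in either region, and the wild-type olfactory bulb was the lowest of the 4 groups. Nr4a3 rose in the olfactory bulb (log2 fold change 2.45, SE 0.25, adjusted p = 0.000395), against 0.53 (SE 0.23, adjusted p = 1) in the hippocampus. The difference of 1.92 (SE 0.34) had an adjusted p of 0.276, and 2.39 with 0.00204 without olfactory bulb wild type 3, the library with the highest wild-type value.

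Nr4a2, a relative of Nr4a3 also needed by dopamine neurons, lay at 53.9, 34.8 and 61.5 CPM in knockout and 12.8, 17 and 19.6 CPM in wild-type olfactory bulb. In the hippocampus the values were 61.9, 74.5 and 86.3 CPM in knockout and 73.9, 62 and 71.1 CPM in wild type. The genotypes overlapped in the hippocampus and not in the olfactory bulb, where Nr4a2 rose (log2 fold change 1.60, SE 0.21, adjusted p = 0.00359). The difference was 1.5 (SE 0.28, adjusted p = 0.393). The third member, Nr4a1, had 1.51 (SE 0.41) in the olfactory bulb and 1.13 (SE 0.41) in the hippocampus, a difference of 0.38 (SE 0.57) that did not pass.

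Fosb, another AP-1 subunit, lay at 84, 96.7 and 124 CPM in knockout and 18.1, 18.5 and 30.5 CPM in wild-type olfactory bulb. In the hippocampus it lay at 17.8, 24 and 27.3 CPM in knockout and 17.3, 12.5 and 14.1 CPM in wild type. Knockout was above wild type in every library of both regions, by a larger fold in the olfactory bulb, where Fosb rose (2.18, SE 0.23, adjusted p = 0.000468). The hippocampal value of 0.65 (SE 0.23) did not pass, and the difference was 1.53 (SE 0.32, adjusted p = 0.551).

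Atf3, a stress-induced factor of the CREB and ATF family, had the largest effect of the 7 genes: 12.7, 18.8 and 18.1 CPM in knockout and 1.67, 1.27 and 3.04 CPM in wild-type olfactory bulb. In the hippocampus it stayed near 1 CPM in both genotypes, at 1.14, 1.06 and 1.01 in knockout and 1.05, 0.928 and 0.692 in wild type. Atf3 rose in the olfactory bulb (3.06, SE 0.38, adjusted p = 0.00312), and the difference was 2.79 (SE 0.55, adjusted p = 0.431).

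Irs2, an adaptor that carries the signal of the insulin and IGF-1 receptors, was the only one of the 7 that is no immediate early gene. It lay at 59.8, 62.2 and 84.7 CPM in knockout and 32, 30.7 and 38.9 CPM in wild-type olfactory bulb, against 94.3, 94.2 and 111 CPM in knockout and 82.1, 89.5 and 84.8 CPM in wild-type hippocampus. Every knockout library was above every wild-type library in each region, with a mean 2.03-fold higher in the olfactory bulb and 1.17-fold higher in the hippocampus. Irs2 rose in the olfactory bulb (1.03, SE 0.15, adjusted p = 0.00975), a call lost without olfactory bulb knockout 3, wild type 1 or wild type 2 (adjusted p = 0.0509, 0.13 and 0.139, edgeR). It was also lost without the libraries under 8 M counts (0.0767) and in the fit of all 24 libraries (0.091). The difference was 0.81 (SE 0.20, unadjusted p = 0.00123, adjusted p = 1).

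**Figure D1:**
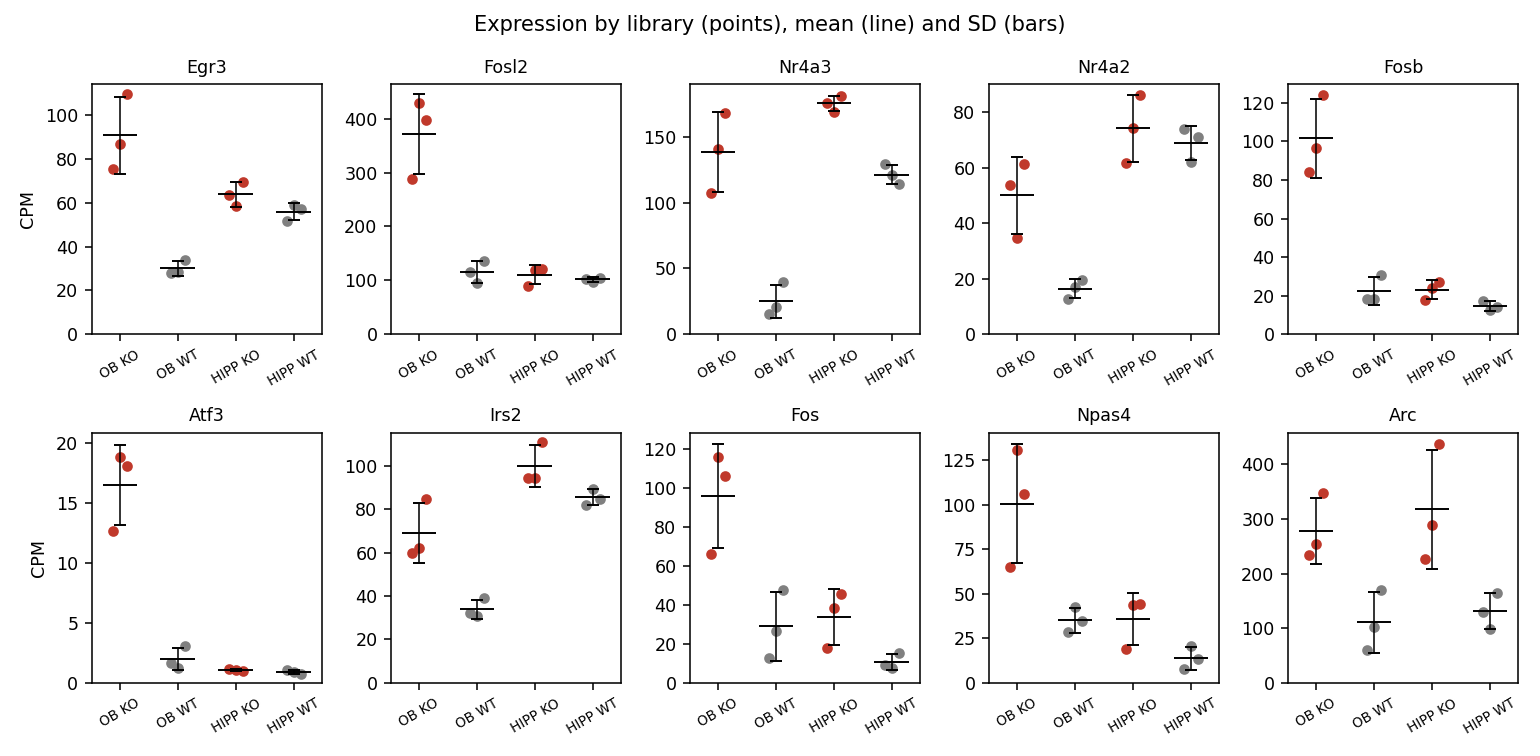
CPM of the 7 genes that rose in the olfactory bulb and of Fos, Npas4 and Arc, by library (points; red knockout, grey wild type; line, mean; bars, SD, n = 3; OB, olfactory bulb; HIPP, hippocampus; KO, knockout; WT, wild type). Egr3 averaged 90.8 ± 17.3 CPM in knockout and 30 ± 3.28 CPM in wild-type olfactory bulb but 63.9 ± 5.62 and 56 ± 3.82 CPM in the hippocampal groups, whereas Fos was higher in knockout in both regions.

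For Fos, Npas4 and Arc the fitted knockout effects in the 2 regions were close, and none of these genes passed after adjustment in either region. Fos, the AP-1 subunit used most as a marker of recent activity, lay at 65.9, 116 and 106 CPM in knockout and 12.5, 26.4 and 47.9 CPM in wild-type olfactory bulb, and at 17.8, 38.6 and 45.5 CPM in knockout and 8.99, 7.75 and 15.3 CPM in wild-type hippocampus. Genotypes did not overlap in either region. Its log2 fold changes were 1.71 (SE 0.43) in the olfactory bulb and 1.67 (SE 0.44) in the hippocampus. The difference of 0.05 had a 95% interval of -1.26 to 1.35, so that equal effects were not shown.

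Npas4, a factor induced by calcium entry into neurons, had a difference of 0.12 (interval -0.96 to 1.20), from log2 fold changes of 1.5 (SE 0.36) in the olfactory bulb and 1.38 (SE 0.36) in the hippocampus. Arc, a protein of active synapses, had 0.05 (interval -0.96 to 1.07), from 1.33 (SE 0.34) and 1.28 (SE 0.33). Egr2, a relative of Egr3, had the reverse order, with 1.97 (SE 0.54) in the olfactory bulb and 2.57 (SE 0.59) in the hippocampus, and a difference of -0.60 (interval -2.26 to 1.06). The signs of the Fos, Npas4 and Arc differences turned under some settings. Egr1 (1.23, SE 0.30, and 0.95, SE 0.30) and Junb, the AP-1 subunit JunB (1.43, SE 0.38, and 0.85, SE 0.37), lay between these genes and Egr3, with differences of 0.29 (interval -0.60 to 1.18) and 0.58 (interval -0.54 to 1.70).

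Over the list of 42 immediate early genes, 41 were measured well enough to be tested (Fosl1 was not). The median difference of effects was 0.38 on the log2 scale, against 0.02 over all genes tested, with 34 of 41 above 0, against 52.8% of all genes. The median effect was 0.77 in the olfactory bulb, against 0.30 in the hippocampus. Over all genes these medians were -0.0028 and -0.0308. An unadjusted p under 0.05 was reached by 27 members in the olfactory bulb, all higher in knockout (3.34% of all genes), and by 15 in the hippocampus, all higher (0.852%). Of the 27, 13 also had one in the hippocampus and 14 did not, and 7 of these 14 had one for the difference itself. For the difference, 9 members had an unadjusted p under 0.05, each with the higher effect in the olfactory bulb (1.55%). This list was known from earlier results of these data to be higher in knockout, so its direction within a region is no independent finding. The difference of effects is made of the same values and shares this limit.

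Knockout libraries lay wholly above wild-type libraries for 24 members in the olfactory bulb (6.05% of all genes did so) and 13 in the hippocampus (4.68%), of which 11 were in common (0.617% of all genes did so in both regions). Summed over the list, the level was 2610 to 3508 CPM in knockout and 1218 to 1886 CPM in wild-type olfactory bulb, and 1929 to 2672 CPM in knockout and 1516 to 1762 CPM in wild-type hippocampus. Neither pair of sums overlapped, and olfactory bulb wild type 3 held the top of its group's range. With each member weighted equally, as the median log2 deviation from its mean over the 12 libraries, the genotypes overlapped in the hippocampus. Knockout 1 (-0.039) lay below wild type 1 (-4.79e-05) there, and the olfactory bulb genotypes stayed apart. Across the 41 genes the effects in the 2 regions had a Pearson r of 0.53 and a Spearman rho of 0.58, as a description over genes that share 12 libraries, against 0.13 and 0.12 across the 17009 tested genes other than Cdr1as.

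**Figure D2:**
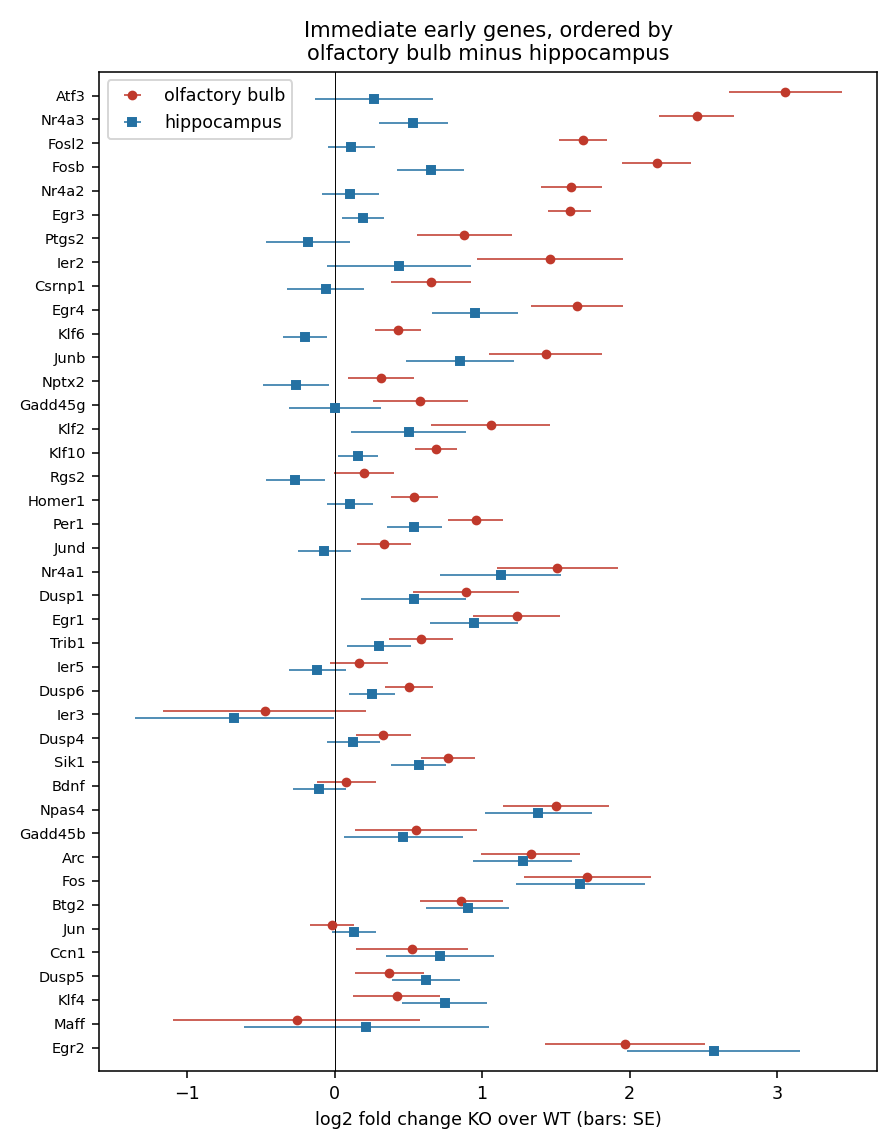
Knockout effect (log2 fold change, knockout over wild type, bars SE) of the 41 immediate early genes tested, in the olfactory bulb (red circles) and the hippocampus (blue squares), ordered by the difference from top to bottom. Atf3, Nr4a3, Fosl2, Fosb, Nr4a2 and Egr3 stand at the top with differences of 1.40 to 2.79, and Fos, Arc and Npas4 lie near equal effects.

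The remaining members at an unadjusted p under 0.05 for the difference were Ptgs2, Klf6 and Klf10, none of which passed after adjustment. Ptgs2, the inducible enzyme of prostaglandin synthesis, had 0.88 (SE 0.32) in the olfactory bulb and -0.18 (SE 0.28) in the hippocampus, with genotypes that overlapped in both. Klf6 (0.43, SE 0.15, and -0.20, SE 0.15) and Klf10 (0.68, SE 0.14, and 0.16, SE 0.14), zinc finger factors of the Kruppel-like family, did not overlap between genotypes in the olfactory bulb. Egr4 had 1.65 (SE 0.31) and 0.95 (SE 0.29), Per1, a clock gene that activity also induces, 0.96 (SE 0.19) and 0.54 (SE 0.18), and Sik1, a kinase that restrains CREB signalling, 0.77 (SE 0.18) and 0.57 (SE 0.19), in the same order of regions. The median difference of the list was above 0 whichever library was left out, and ran from 0.18 (without hippocampus knockout 1) to 0.60 (without olfactory bulb wild type 3).

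Some of the 7 genes that rose in the olfactory bulb carry a site for miR-7, a stretch complementary to its seed (GTCTTCC), in the longest annotated 3′ UTR (GENCODE M21). The sites of Egr3, Nr4a3 and Irs2 are shown with their flanks, the site in capitals, because these 3 of the 7 (42.9%) had one, against 2205 of 14505 genes with a 3′ UTR (15.2%), which is a match of letters over UTRs of unequal length. The median UTR length was 2329 bases in the 7 genes, against 1373 over all genes, so the shares are not matched for length.
Egr3 (chromosome 14): cggaggagatgGTCTTCCatctgct
Nr4a3 (chromosome 4): agtgttcttctGTCTTCCatagtta
Irs2, first site (chromosome 8): gcaatgcagctGTCTTCCtgcttcc
Irs2, second site (chromosome 8): ccctccctgttGTCTTCCactgtac
Fosl2, Nr4a2, Atf3 and Fosb had no match, and Fos had 1. Whether the sites bear on the knockout effects was not tested. Among the tested immediate early genes 7 of 41 (17.1%) had a match, close to the share of all genes. Of 18 described miR-7 targets outside that list, 10 had a match (55.6%), which is no independent finding in genes already described as targets. Their median difference was 0.11, with effects of 0.14 in the olfactory bulb, where 4 had an unadjusted p under 0.05 and higher levels in knockout (3.34% of all genes), and 0.03 in the hippocampus, where none did (0.852%). Irs2 was 1 of the 4.

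The promoters were read for the core of the CREB site, TGACG, on both strands (CGTCA on the other), in 300 bases from 250 before to 50 after the gene start (RefSeq, GRCm38.p6). It stood in 20 of 32 immediate early gene promoters (62.5%) and 3562 of 11797 promoters of tested genes (30.2%). Of the 7 genes that rose in the olfactory bulb, 6 had an entry and 4 held a match: Nr4a3 and Nr4a2 had 4 each, Atf3 and Fosb 1 each, Fosl2 and Irs2 none. The 2 of these 6 promoters with 4 matches are shown, matches in capitals.
Nr4a3 promoter, chr4:48045055-48045354, + strand: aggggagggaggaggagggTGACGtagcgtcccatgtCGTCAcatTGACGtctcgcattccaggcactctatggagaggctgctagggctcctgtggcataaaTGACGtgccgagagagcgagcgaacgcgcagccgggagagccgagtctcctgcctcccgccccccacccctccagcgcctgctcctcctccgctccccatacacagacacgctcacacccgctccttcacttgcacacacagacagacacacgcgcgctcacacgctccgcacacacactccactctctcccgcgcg
Nr4a2 promoter, chr2:57123954-57124253, - strand: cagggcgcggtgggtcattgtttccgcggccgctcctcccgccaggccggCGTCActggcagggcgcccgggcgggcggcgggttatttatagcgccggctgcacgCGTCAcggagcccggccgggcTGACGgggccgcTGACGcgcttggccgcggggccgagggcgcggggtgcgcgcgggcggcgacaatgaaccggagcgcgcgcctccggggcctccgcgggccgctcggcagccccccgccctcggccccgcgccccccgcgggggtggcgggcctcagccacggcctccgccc
Nr4a1, which is not one of the 7 genes, also held 4 matches in its promoter. Those of Fos, Npas4 and Egr4 held 2 each, that of Junb 1 and that of Egr2 none. The full palindrome TGACGTCA stood in none of the 6 promoters, in 2 of the 32 and in 363 of the 11797 (3.08%). The SRF site (CArG, CC and GG around 6 bases of A or T) and the AP-1 site TGAGTCA were read as well. The SRF site stood in none of the 6, in 1 of the 32 and in 153 of the 11797 (1.3%). The AP-1 site stood in none of the 6, none of the 32 and 412 of the 11797 (3.49%).

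Genes that restrain the MAP kinase pathway, which carries growth factor and activity signals to the immediate early genes, had a median effect of 0.33 in the olfactory bulb, against 0.08 in the hippocampus over 13 tested members, and a median difference of 0.22. An unadjusted p under 0.05 was reached by 5 members in the olfactory bulb, all higher (3.34% of all genes), and by 1 in the hippocampus, also higher (0.852%). Of the 13, Dusp1, Dusp4, Dusp5 and Dusp6 are also counted among the immediate early genes, and they include 2 of these 5 and the 1. Dusp14, a phosphatase of MAP kinases, lay at 36.7, 48.6 and 49.2 CPM in knockout and 29.7, 25 and 33 CPM in wild-type olfactory bulb, and at 17.6, 16.4 and 19.7 CPM in knockout and 27.5, 17.4 and 18.7 CPM in wild-type hippocampus. Its difference was 0.86 (SE 0.27, unadjusted p = 0.00659), and 0.61 without hippocampus wild type 1, the highest of its group. Spry2, an inhibitor of receptor signalling, had 0.56 (SE 0.21), Spred2 0.30 (SE 0.16) and Spry4 0.39 (SE 0.23). None passed after adjustment.

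Over 22 clock genes, of which Per1 is also an immediate early gene, the median difference was 0.05, against 0.02 over all genes tested. In the olfactory bulb 7 were higher and 2 lower in knockout at an unadjusted p under 0.05 (3.34% and 1.78% of all genes). In the hippocampus 1 was higher and 2 were lower (0.852% and 1.08%), and 1 gene had such a p for the difference (2.08%). Dbp, a transcription factor driven by the clock, lay at 33.4, 23.7 and 28.7 CPM in knockout and 35.7, 48.7 and 37.6 CPM in wild-type olfactory bulb, and at 30.7, 29.8 and 29.1 CPM in knockout and 47.7, 59.1 and 42.1 CPM in wild-type hippocampus. Knockout was below wild type in every library of both regions, as for 79 genes (0.464%) in all, with a difference of 0.23 (SE 0.24) between log2 fold changes of -0.50 (SE 0.17) and -0.73 (SE 0.17), neither of which passed. Per2, a repressor in the clock, had 0.57 (SE 0.16) in the olfactory bulb and 0.21 (SE 0.15) in the hippocampus. Hlf, a relative of Dbp, had the smallest p of the list, at 0.37 (SE 0.13, unadjusted p = 0.015).

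**Figure D3:**
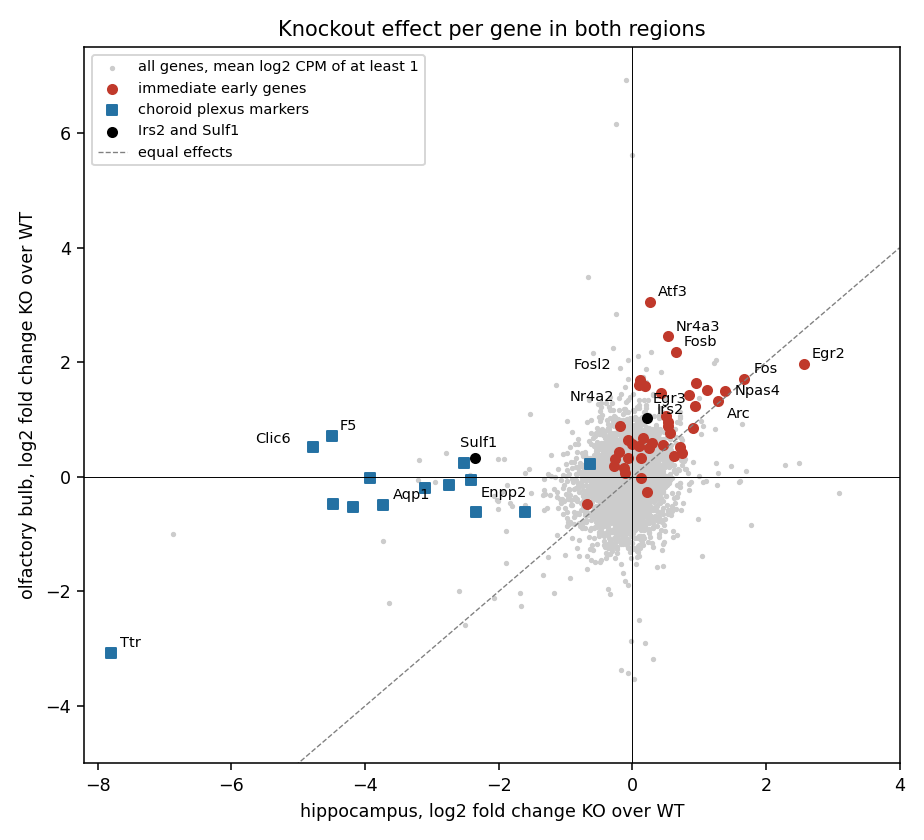
Knockout effect of each gene in the olfactory bulb (vertical, log2 fold change) against the hippocampus (horizontal), for genes with a mean log2 CPM of at least 1 other than Cdr1as (grey), all tested immediate early genes (red), choroid plexus markers (blue squares) and Irs2 and Sulf1 (black); the dashed line marks equal effects. The immediate early genes lie to the upper right and mostly above the line, and the choroid plexus markers extend to the left, with hippocampal values down to -7.81 for Ttr.

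Of the gene lists, the choroid plexus markers had the largest median difference, 3.07, through lower fitted values in knockout hippocampus, none of which passed after adjustment. The choroid plexus lines the ventricles, makes cerebrospinal fluid and borders on the hippocampus. The 14 tested markers of 16 had a median effect of -0.17 in the olfactory bulb, against -3.41 in the hippocampus, and all 14 had an unadjusted p under 0.05 there (1.08% of all genes did so in that direction). Summed over the list, the level was 280, 271 and 236 CPM in knockout and 3693, 236 and 3533 CPM in wild-type hippocampus, so that wild type 2 lay with the knockouts and the other 2 wild types stood apart. The olfactory bulb held 170 to 267 CPM in knockout and 210 to 237 CPM in wild type.

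Ttr, transthyretin, the main product of that epithelium, lay at 7.81, 5.63 and 4.23 CPM in knockout and 2260, 4.64 and 1660 CPM in wild-type hippocampus, and at 0.214, 0 and 0.772 CPM in knockout and 12.7, 0.875 and 0.64 CPM in wild-type olfactory bulb. F5, Clic6 and Kcnj13, also markers of the choroid plexus, had differences of 5.22 (SE 1.35), 5.30 (SE 1.51) and 4 (SE 1.42), each at adjusted p = 1 (edgeR). Without hippocampus wild type 2, F5 (5.74), Aqp1, a water channel (3.73), and Enpp2, which makes lysophosphatidic acid (2.83), passed for the difference at adjusted p = 0.0288, 0.00138 and 0.000992 (edgeR). These calls then rest on the pair of wild-type libraries with high choroid plexus levels.

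Sulf1, which removes sulfate groups from heparan sulfate outside the cell, was among the 8 smallest p-values of the difference. It lay at 32, 34.1 and 25.3 CPM in knockout and 25.7, 23 and 24.2 CPM in wild-type olfactory bulb, and at 4.44, 7.15 and 4.51 CPM in knockout and 26.8, 9.67 and 45.8 CPM in wild-type hippocampus. Hippocampal wild type 1 and 3, the libraries with the high choroid plexus sums, were again the highest, and wild type 2 was above the knockouts but nearer to them. The difference was 2.67 (SE 0.55, adjusted p = 0.521), and 3.03 with an adjusted p of 0.00397 without hippocampus wild type 2. The part of the choroid plexus RNA in this value was not tested. Igfbp2, a binding protein of the insulin-like growth factors, had 0.04 (SE 0.29) in the olfactory bulb and -0.95 (SE 0.29) in the hippocampus, where wild type 1 and 3 (29 and 36.5 CPM) were above wild type 2 (13.1 CPM) and the knockouts (14.7, 16.2 and 10 CPM). Markers of meninges and fibroblasts had medians of -0.07 in the olfactory bulb, against -0.51 in the hippocampus. All 17 were below 0 there, as for 9625 of 17010 genes in all, and 4 were lower at an unadjusted p under 0.05 (1.08%). Of the 17, Igf2 is also counted among the choroid plexus markers. Blood cell markers had 8 of 8 differences above 0 (52.8% of all genes), with a median of 0.44. The summed level of the meningeal list was 298 to 733 CPM in knockout and 506 to 1035 CPM in wild-type hippocampus, which overlapped.

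**Figure D4:**
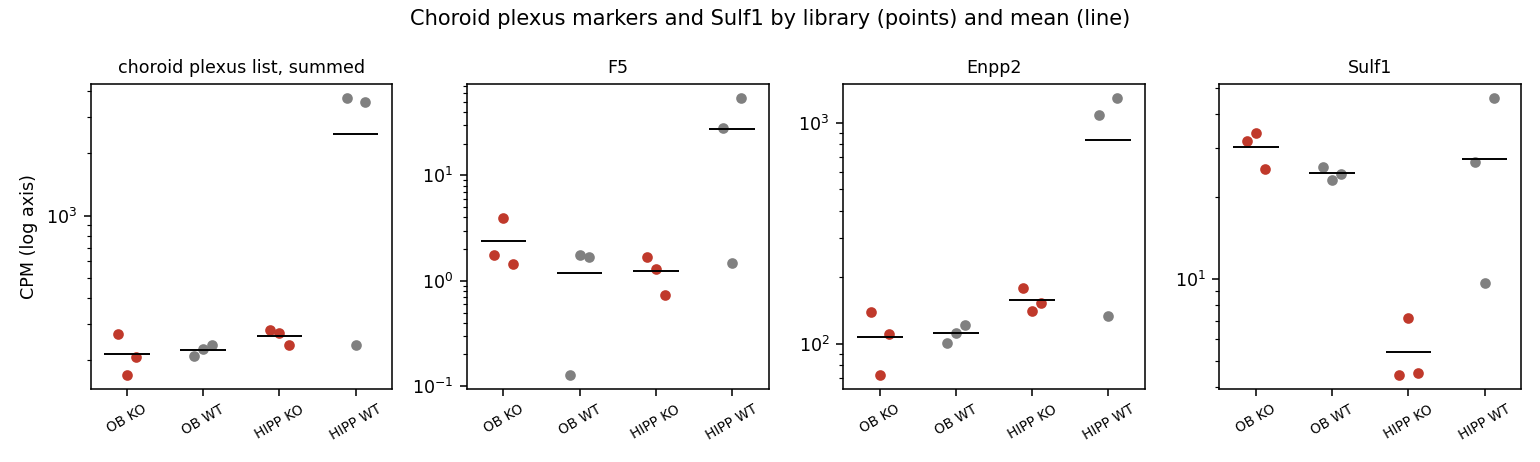
Summed CPM of the choroid plexus list and CPM of F5, Enpp2 and Sulf1 by library (points; red knockout, grey wild type; line, mean; log axis; OB, olfactory bulb; HIPP, hippocampus; KO, knockout; WT, wild type). Of the wild-type hippocampus libraries, 1 and 3 stand far above the rest and 2 lies at 236 CPM beside the knockouts at 236 to 280 CPM, and the olfactory bulb shows no such split.

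Several housekeeping lists had a small shift towards the olfactory bulb that rested on 1 library. Cytosolic ribosomal protein genes had a median difference of 0.36 with 48 of 49 above 0, and oxidative phosphorylation genes of the nucleus 0.34 with 44 of 44. Genes of the unfolded protein response had 0.37 (14 of 14) and heat shock chaperones 0.31 (16 of 16). Their effects in the hippocampus had medians of -0.30, -0.30, -0.39 and -0.11 in that order, and in the olfactory bulb 0.08, 0.06, 0.02 and 0.20. Differences above 0 were held by 52.8% of all genes. Fitted values above 0 were held by 43.4% of all genes in the hippocampus and 49.4% in the olfactory bulb. Without hippocampus wild type 1, the library with the fewest reads in no feature, the 4 median differences were -0.03, -0.02, -0.14 and -0.01, while that of the immediate early genes was 0.32. With the no-feature percentage of each library added to the fit they were -0.05, -0.04, -0.20 and -0.05, and that of the immediate early genes was 0.37.

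Among the chaperones, Dnajb1, a partner of Hsp70 that heat shock factor induces, lay at 39.5, 51.6 and 52.5 CPM in knockout and 18.4, 23.2 and 25.9 CPM in wild-type olfactory bulb, and at 40.6, 39.8 and 62.5 CPM in knockout and 57.6, 26.6 and 36 CPM in wild-type hippocampus. The genotypes were apart in the olfactory bulb and overlapped in the hippocampus. The difference was 0.83 (SE 0.36, unadjusted p = 0.036) and 0.45 without hippocampus wild type 1. Bag3, another partner of Hsp70, had 0.73 (SE 0.28), and 0.69 without that library. Rps7 and Ndufb8, the members with the smallest p in the ribosomal and respiratory lists, had 0.78 (SE 0.34) and 0.86 (SE 0.34), and 0.29 and 0.52 without it.

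**Figure D5:**
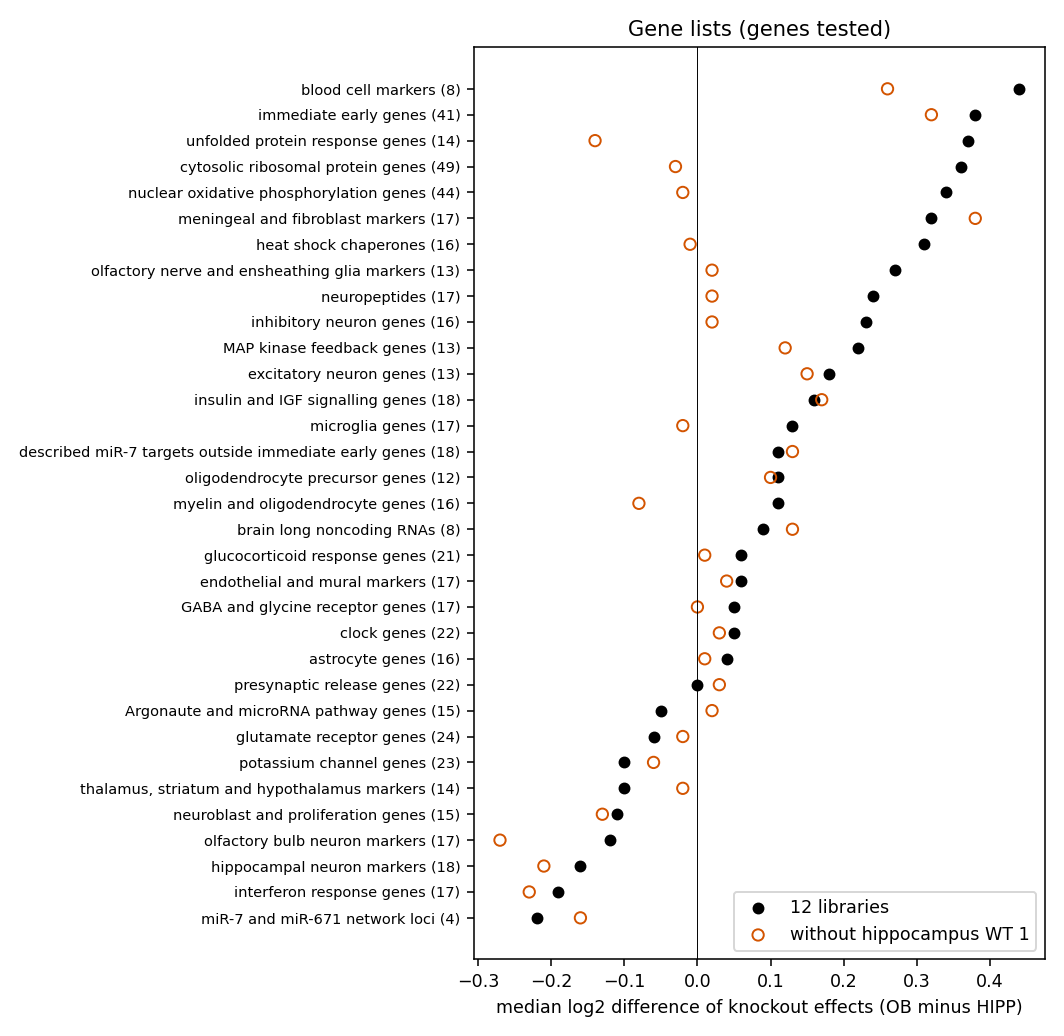
Median log2 difference of knockout effects (olfactory bulb minus hippocampus) per gene list, with the number of genes tested, in all 12 libraries (black) and without hippocampus wild type 1 (open orange circles). The choroid plexus list, at 3.07, is left off. The immediate early genes keep a median of 0.32, whereas the ribosomal, respiratory, chaperone and unfolded protein response lists move to between -0.14 and -0.01.

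In the other direction, with the lower effect in the olfactory bulb, the smallest p-values belonged to genes of low level in either region or of small difference. Lct, which encodes lactase and is a marker of hippocampal neurons here, lay at 87.9, 65.2 and 93.1 CPM in knockout and 73.4, 67.4 and 57.1 CPM in wild-type hippocampus, but the olfactory bulb held only 1, 0 and 1 counts in knockout and 5, 12 and 4 counts in wild type. The olfactory bulb ratio of knockout to wild type was 0.0941 (2 against 21 counts, exact 95% interval 0.0107 to 0.385, counting error only). The difference of Lct was -3.49 (SE 0.67, unadjusted p = 0.00012, adjusted p = 0.409, edgeR). It was called under 1 other setting, no filter on low counts (adjusted p = 0.0487, edgeR). Gm15712, a gene model without a named product, lay at 3.1, 2.33 and 2.98 CPM in knockout and 4.11, 4.24 and 3.36 CPM in wild-type olfactory bulb, and at 13.3, 14.5 and 13.5 CPM in knockout and 6.06, 9.21 and 9.25 CPM in wild-type hippocampus. Knockout libraries lay wholly below wild-type libraries for 5.14% of all genes in the olfactory bulb, against 4.8% in the hippocampus. Gm15712 was lower in every knockout olfactory bulb and higher in every knockout hippocampus, a pattern shared by 23 genes (0.135% of those tested), and its difference was -1.21 (SE 0.37, adjusted p = 1).

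Il16, a cytokine precursor with neuronal forms, had the same pattern, with -1.04 (SE 0.39) in the olfactory bulb at under 5 CPM and 0.40 (SE 0.29) in the hippocampus at 45.6 to 73.2 CPM. Runx2, a transcription factor of bone, had it as well, with -0.29 (SE 0.17) and 0.39 (SE 0.17). Nectin3, an adhesion protein of synapses, had -0.31 (SE 0.11) and 0.19 (SE 0.11). Zbtb20, a factor of hippocampal pyramidal identity, had -0.07 (SE 0.10) and 0.28 (SE 0.10), within a list of 18 hippocampal neuron markers whose median difference was -0.16. None of these passed after adjustment.

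At the deleted locus, C230004F18Rik, the noncoding gene in which Cdr1as lies, was the only gene besides Cdr1as to pass in the hippocampus, a call lost in the fit of all 24 libraries (adjusted p = 1, edgeR) and without the libraries under 8 M counts (0.0916). It lay at 204, 266 and 188 CPM in knockout and 52.7, 79 and 79.9 CPM in wild-type hippocampus (log2 fold change 1.64, SE 0.18, adjusted p = 0.00236, edgeR), and at 147, 183 and 219 CPM in knockout and 95.9, 106 and 87.6 CPM in wild-type olfactory bulb (0.92, SE 0.18, adjusted p = 0.219). The genotypes did not overlap in either region, and the difference was -0.72 (SE 0.25, unadjusted p = 0.0132, adjusted p = 1). It lies over the altered locus, and whether counting used strand is not given in the sources used here, so its reads may not be told apart from those of its neighbours. Away from the locus, Tnfrsf25, the death receptor DR3, had 0.89 (SE 0.27) in the olfactory bulb at 1.28 to 3.41 CPM and 1.06 (SE 0.20) in the hippocampus at 12.9 to 37.5 CPM, a difference of -0.17 (SE 0.34). Banp, a regulator that binds nuclear matrix DNA, had 0.74 (SE 0.14) and 0.55 (SE 0.14), a difference of 0.19 (SE 0.19). For both, knockout was above wild type in every library of each region, as for 105 genes (0.617%) in all.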

How the data were processed

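The authors deposited 1 table per library with unnormalized counts for 37621 entries (37620 Ensembl identifiers and Cdr1as). Named in the submitters' processing notes are STAR 2.5.1b, HTSeq 0.6.1p1, bcl2fastq 2.17.1.14 and the build mm9; how they were set, strand included, is not given in the sources used here. From each table the 5 summary entries were left out. Names came from GENCODE M21 (GRCm38), which matched 32897 identifiers and left 1.24% of counts unmatched. The 12 libraries (5.18 to 26.43 M counts) were fitted together as 4 groups with edgeR 4.0.16 in R 4.3.3 (quasi-likelihood, robust, TMM, filterByExpr at a minimum count of 10), and the interaction, each region's knockout effect and their Benjamini-Hochberg values over 17010 genes were taken from that fit, two-sided, at 0.05. SE is the fold change over the root of F. CPM use TMM-scaled sizes. Other settings used DESeq2 1.42.0, limma 3.58.1 (voom), other scalings, filters, covariates, blocks, thinning, all 24 libraries and fewer libraries. The difference test was tested on simulated data. Named genes were up to 8 per direction by smallest p in each contrast, up to 4 per list of 34, and a short set of genes of known interest (the locus, Fos, Egr1, Arc and others). Egr4, Nr4a1, Ptgs2, Klf6, Klf10, Ier2 and Ttr fall outside this rule and were chosen after their values were seen. The members and lists were chosen with earlier results of these data known.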

Additional observations from a re-analysis of the deposited data

How the results depend on the processing

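The number of genes called for the difference, 0 with edgeR, was 4 with no filter on low counts, 7 with DESeq2, 3 with limma-voom, 2 with limma-voom and sample quality weights, and 0 to 4 with 1 library left out (2 without olfactory bulb knockout 1, 3 without olfactory bulb wild type 3, 4 without hippocampus wild type 2). The number called in the olfactory bulb, 8, was 17 with no filter, 23 with DESeq2, 18 with quality weights and 6 to 12 with 1 library left out. The number called in the hippocampus, 2, was 16 with DESeq2, 1 without the libraries under 8 M counts and 2 to 22 with 1 library left out, 22 without hippocampus wild type 2. Deviations of same-numbered libraries from their group means correlated at -0.26 to 0.08 between genotypes and 0.00 to 0.14 between regions, so not over 0.1 in every pair, and the labels do not say whether a number marks an animal. Between regions, 5 of 6 olfactory bulb libraries correlated best with the hippocampus library of their own genotype and number, which is a hint from the data and not the design. The replicate number as a block gave 2 calls for the difference, 17 within the olfactory bulb and 3 within the hippocampus, and a block of genotype and number gave 1 for the difference, Fosl2 (adjusted p = 0.0039).

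The median difference of the immediate early genes, 0.38, was above 0 under each of 25 settings, at 0.18 to 0.60 with 1 library left out. The difference of Fos turned to -0.02 with quality weights, -0.04 after thinning to the smallest library and -0.45 without the libraries under 8 M, Npas4 to -0.17 with limma-voom, -0.15 with quality weights and -0.24 without those libraries, Arc to -0.18 and Egr1 and Ier2 to -0.06 without them, Klf4 to 0.26 after thinning and 0.02 without them, and Tnfrsf25 to 0.05 with the no-feature covariate and 0.07 after thinning. With 1 library left out the ranges were -0.32 to 0.60 for Fos, -0.31 to 0.39 for Npas4, -0.24 to 0.50 for Arc and -0.03 to 0.82 for Egr1. In the fit of all 24 libraries the olfactory bulb calls of Egr3 (adjusted p = 0.413), Fosb (0.0531) and Irs2 (0.091) were lost, as was that of Nr4a3 with no filter (0.052) and of Nr4a2 without olfactory bulb wild type 1 (0.0541). The causes of these changes were not tested. With 3 libraries a group and 2 under 8 M counts, differences of low genes could not be resolved.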

Other observations

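Of 13 excitatory neuron genes, 12 were above 0 in the olfactory bulb (49.4% of all genes), with a median of 0.15, and 7 in the hippocampus (43.4%), with a median of 0.03. Itpka, a kinase of dendritic spines, lay at 8.55, 5.38 and 6.23 CPM in knockout and 5.01, 3.37 and 3.92 CPM in wild-type olfactory bulb, and at 125, 104 and 137 CPM in knockout and 174, 118 and 95.4 CPM in wild-type hippocampus, a difference of 0.89 (SE 0.33, unadjusted p = 0.018). Nrgn, which binds calmodulin in dendrites, had 0.48 (SE 0.17) in the olfactory bulb and -0.09 (SE 0.16) in the hippocampus. Neither passed after adjustment, and without olfactory bulb knockout 1 the list's median difference was -0.13, against 0.18.

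Lists of inhibitory neurons, astrocytes, microglia, glutamate receptors and presynaptic release genes had median differences of 0.23, 0.04, 0.13, -0.06 and 0.00. Of 24 glutamate receptor genes, 2 had an unadjusted p under 0.05 for the difference (2.08% of all genes), Grm8 (0.62, SE 0.27) and Grik4 (-0.58, SE 0.26). 1700016P03Rik, a noncoding RNA that hosts miR-212 and miR-132, lay at 15.1, 27.8 and 27.1 CPM in knockout and 1.93, 6.04 and 9.2 CPM in wild-type olfactory bulb, and at 3.91, 9.36 and 9.86 CPM in knockout and 1.84, 3.58 and 4.55 CPM in wild-type hippocampus. Its difference was 0.76 (SE 0.68).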
